A study of Homo sapiens with 10 samples.

Results

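Prostaglandins are lipid signals made from arachidonic acid, and 10 genes of their synthesis, transport, breakdown and sensing were described in BEAS2B cells, a human bronchial epithelial cell line. The genes were SLCO2A1, PTGS1, PTGS2, PTGES, PTGES2, PTGES3, ABCC4, HPGD, PTGER2 and PTGER4, out of 52402 gene symbols in the deposited tables, and all 10 symbols were listed. They were chosen by symbol as genes of the pathway. SLCO2A1 was selected on these data, because its counts in the miR3124_mimic libraries lay far above the few counts of the miRcontrol libraries, so those values are given as a description without a test. Cells received a scrambled miRNA control (miRcontrol), a mimic of miR-3124-5p (miR3124_mimic), a mimic of miR-200b-3p (miR200b_mimic) or an inhibitor of miR-92b (miR92b_inhibitor) at 50 nM, or the 3 together (3-miRNA mixed group), all with the same lipid reagent, and RNA was taken after 48 h. The dose in the mixed group was not given in the sources used here. The labels and methods name the target of the inhibitor as miR-92b without its strand, and the diagnostic panel behind the design holds miR-92b-5p. Each of the 5 groups had 2 libraries. Nothing in the labels says that they came from separate transfections, so p-values measure only the spread between these libraries, which may be technical.

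Total counts were 17666345 and 16773655 for miRcontrol, 14518832 and 17414891 for miR3124_mimic, 18004955 and 18503890 for the 3-miRNA mixed group, 17279748 and 18146986 for miR92b_inhibitor and 13587666 and 17585455 for miR200b_mimic. Levels are given as normalized CPM, counts scaled to a common library size, with the mean and SD of the 2 libraries. A gene was called changed when the edgeR quasi-likelihood test gave a Benjamini-Hochberg adjusted p under 0.05 over the 14884 genes that passed the filter on low counts. Of the 10 genes, 9 passed this filter and HPGD did not. SLCO2A1 passed it through the miR3124_mimic, 3-miRNA mixed and miR200b_mimic libraries, so it was left out of the counts of called genes below.

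As background, phospholipases free arachidonic acid from membranes, and the cyclooxygenases PTGS1 and PTGS2 turn it into the precursor from which prostaglandin E synthases (PTGES, PTGES2, PTGES3) make prostaglandin E2. ABCC4 exports prostaglandins from the cell, SLCO2A1 carries them back in, and HPGD inactivates them. PTGER2 and PTGER4 are receptors for prostaglandin E2 that raise cyclic AMP. PTGS1 is usually made at a steady level, and PTGS2 is known as an inducible gene whose mRNA is short-lived. In the airway epithelium prostaglandin E2 is known for limiting inflammation and relaxing smooth muscle.

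The mature miRNAs are shown because each transfected molecule copies or blocks one of them. The capitals mark the seed, bases 2 to 8, and the sequences and positions are from RefSeq (GRCh38.p14). Both strands of miR-92b are printed, and no seed is shared between the 4.
hsa-miR-3124-5p: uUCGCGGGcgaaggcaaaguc
hsa-miR-200b-3p: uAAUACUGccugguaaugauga
hsa-miR-92b-3p: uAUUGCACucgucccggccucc
hsa-miR-92b-5p: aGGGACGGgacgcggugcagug
They lie at chr1:248826383-248826403, chr1:1167160-1167181, chr1:155195237-155195258 and chr1:155195196-155195217, all on the plus strand.

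A word of 7 bases that pairs with a seed was looked for in the 3′UTR of each gene, on the transcript strand, in the coding transcript with the longest 3′UTR (GENCODE v29, GRCh38). The word CCCGCGA, which pairs with the miR-3124-5p seed, was in none of the 10 genes and in 0.632% of 19159 3′UTRs. The word CAGTATT of miR-200b-3p was in 16.02% of 3′UTRs and in PTGER2. The word GTGCAAT of miR-92b-3p was in 11.05% of 3′UTRs and in SLCO2A1 and PTGER4, and the word CCGTCCC of miR-92b-5p was in 3.82% and in none of the 10. The same genes held the words when any coding transcript was allowed. The 3 matches are shown with the word in capitals.
PTGER2: tctcatcactaCAGTATTactcttacaag
SLCO2A1: gtgggctgtcaGTGCAATagagcctgggg
PTGER4: tataaaatcctGTGCAATagacacataca
The word of PTGER2 lies at chr14:52328015-52328021 on the plus strand, base 561 of a 3′UTR of 1152 bases, and 11.2% of 3′UTRs of like length (80% to 125%) hold it. That of SLCO2A1 lies at chr3:133931769-133931775 on the minus strand, base 2938 of 6568, where 37.0% of 3′UTRs of like length hold it. That of PTGER4 lies at chr5:40692428-40692434 on the plus strand, base 50 of 1357, against 8.80%. A match is a description of the sequence and not a measured binding site.

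SLCO2A1 (chr3:133928145-134052184, minus strand), the prostaglandin uptake carrier, was near the limit of detection in control cells. It had 2 and 1 counts in the miRcontrol libraries and 46 and 56 in the miR3124_mimic libraries. The 3-miRNA mixed group had 62 and 41 counts, miR200b_mimic had 7 and 14, and miR92b_inhibitor had 2 and 3. The miR3124_mimic and mixed libraries were thus high, the miR200b_mimic libraries lay between them and the rest, and the counts of miRcontrol and miR92b_inhibitor overlapped. The mean was 0.0871 ± 0.0387 CPM in miRcontrol, 3.16 ± 0.0191 in miR3124_mimic, 2.82 ± 0.864 in the mixed group, 0.141 ± 0.0336 in miR92b_inhibitor and 0.664 ± 0.199 in miR200b_mimic. Summed over the 2 libraries, these are 3 counts in miRcontrol, 102 in miR3124_mimic, 103 in the mixed group, 21 in miR200b_mimic and 5 in miR92b_inhibitor. In bulk RNA, more cells with SLCO2A1 mRNA and more of it per cell cannot be told apart.

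In summed counts scaled to the normalized library sizes, SLCO2A1 in the mixed group was 4.11 times that in miR200b_mimic and 19.9 times that in miR92b_inhibitor. The second ratio is imprecise, since it rests on 5 summed counts in miR92b_inhibitor. These ratios are a description without a test, because SLCO2A1 passed the filter only through the groups in which it was high and the mixed group also held the mimic on which it was selected. The 2 mixed libraries, at 3.43 and 2.21 CPM, lay on either side of the miR3124_mimic libraries, at 3.14 and 3.17 CPM.

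**Figure D1:**
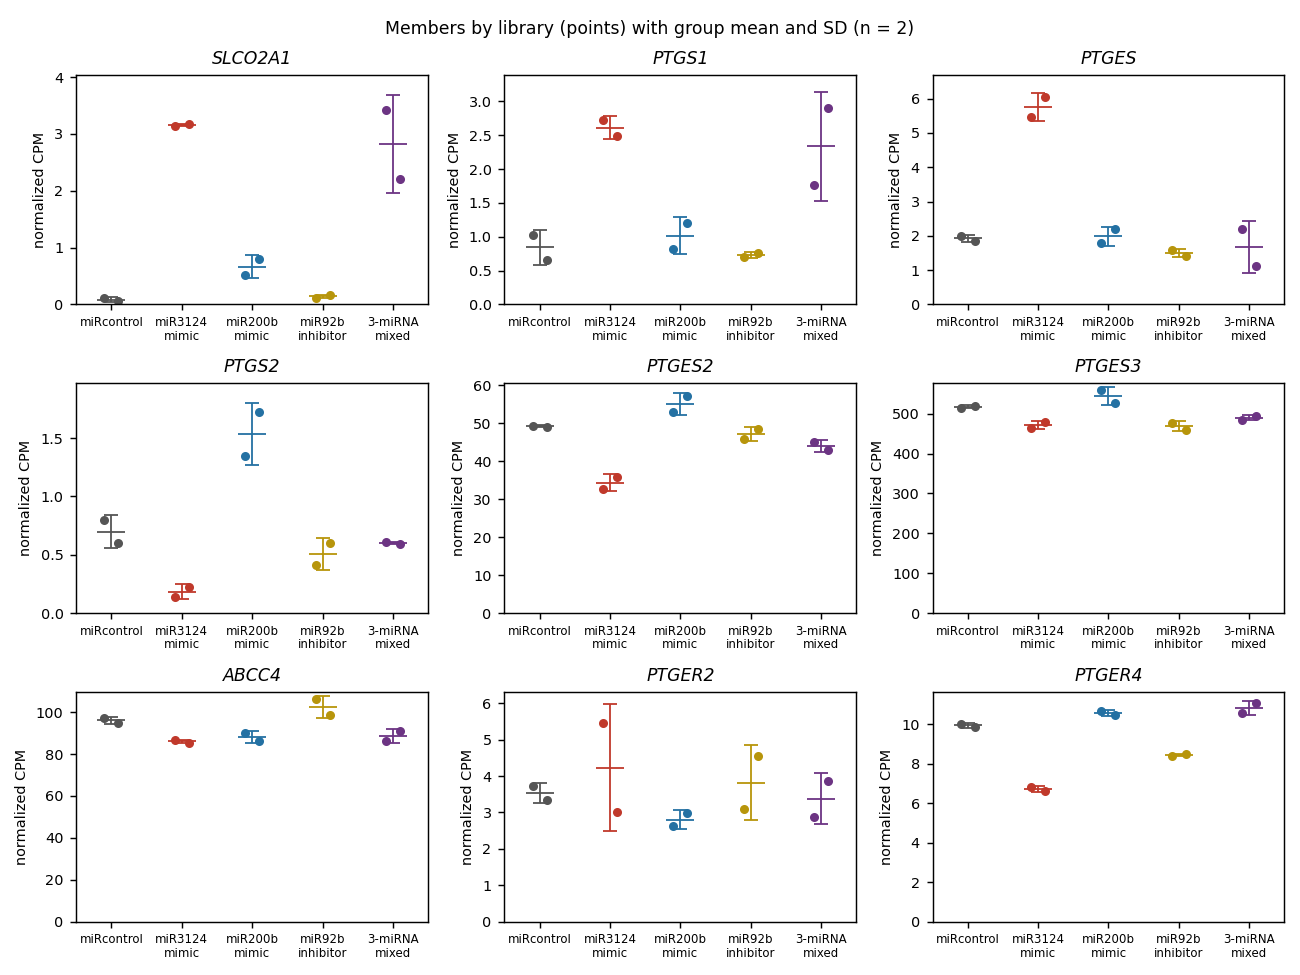
Normalized CPM (linear axis from 0) of the 9 genes with counts, in the 2 libraries (points) of each of the 5 groups, with the mean (bar) and SD (whiskers). SLCO2A1 and PTGS1 are high in miR3124_mimic and the 3-miRNA mixed group, PTGES is high in miR3124_mimic at 5.76 CPM, and PTGS2 is lowest there at 0.181 CPM.

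SLCO2A1 mRNA is also known from endothelium, so markers of other cell types were read in the same libraries. The 5 endothelial markers summed to 0.401 and 0.537 CPM in miRcontrol, 4.99 and 3.28 in miR3124_mimic, 1.05 and 1.88 in the mixed group, 0.350 and 0.602 in miR92b_inhibitor and 0.523 and 0.575 in miR200b_mimic. CDH5, an endothelial cadherin and the most abundant of the 5 over all libraries, led the list in miR3124_mimic and in no other group by its mean, and made up 4.03 and 2.49 CPM of the miR3124_mimic sums. It had 59 and 44 counts there, against 1 and 1 in miRcontrol and 5 and 10 in the mixed group, and was the only endothelial marker to pass the filter, which it did through the miR3124_mimic libraries. VWF, the von Willebrand factor, had 9 and 8 counts with miR3124_mimic and 6 and 10 in the mixed group, against 2 and 2 in miRcontrol, 2 and 7 in miR200b_mimic and 1 and 4 in miR92b_inhibitor. PECAM1, a defining endothelial gene, had at most 4 counts in any library, KDR at most 3 and TEK at most 9. CD14, a monocyte surface receptor, was 1.12 ± 0.446 CPM in miRcontrol and 12.6 ± 0.220 in miR3124_mimic, while PTPRC, carried by white blood cells, had at most 2 counts and MS4A1 none. The 6 immune markers, led by CD68, summed to 27.5 and 28.7 CPM in miRcontrol, 36.1 and 36.3 with miR3124_mimic, 18.1 and 20.3 with miR200b_mimic, 40.2 and 42.2 with miR92b_inhibitor, and 24.7 and 25.9 in the mixed group. The part of these genes in the SLCO2A1 result was not tested. CDH5 and VWF were singled out after their values were seen.

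The cyclooxygenases moved in opposite directions with miR3124_mimic. PTGS1 (chr9:122370530-122395703, plus strand) was at 1.03 and 0.657 CPM in miRcontrol and 2.73 and 2.49 in miR3124_mimic. The mixed group had 1.77 and 2.91 CPM, miR200b_mimic 0.823 and 1.21, and miR92b_inhibitor 0.700 and 0.766. The miR3124_mimic and mixed libraries were all above the other 6 libraries. PTGS1 rose by 1.61 ± 0.36 (SE) on the log2 scale with miR3124_mimic (edgeR, adjusted p = 0.000157) and by 1.46 ± 0.36 in the mixed group (adjusted p = 0.000711), the latter resting in part on 1 library: without replicate 2 of the mixed group it was 1.06 with an adjusted p of 0.0624. It was also higher in the mixed group than in miR200b_mimic, by 1.17 ± 0.35 (adjusted p = 0.00627), and than in miR92b_inhibitor, by 1.66 ± 0.36 (adjusted p = 0.000212). Without mixed replicate 2 the first of these fell to 0.77 (adjusted p = 0.200), and without miR200b_mimic replicate 1 to 0.95 (adjusted p = 0.0818).

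PTGS2 (chr1:186671791-186680427, minus strand) was a rare mRNA in these cells, with between 2 and 30 counts per library. The miRcontrol libraries had 14 and 10 counts, those of miR3124_mimic 2 and 4, with 11 and 11 in the mixed group, 7 and 11 in miR92b_inhibitor and 18 and 30 in miR200b_mimic. The miR3124_mimic libraries were the lowest of the 10 and the miR200b_mimic libraries the highest. PTGS2 fell by 1.88 ± 0.65 on the log2 scale with miR3124_mimic (adjusted p = 0.0134) and rose by 1.14 ± 0.43 with miR200b_mimic (adjusted p = 0.0310). Both calls were fragile at these counts. The DESeq2 Wald test gave adjusted p-values of 0.0523 and 0.161, and leaving out miRcontrol replicate 1 gave 0.101 and 0.0706. The first call was also lost without miR3124_mimic replicate 1 (0.101), and the second without miRcontrol replicate 2 (0.199) or miR200b_mimic replicate 2 (0.236). The mixed group was 1.66 ± 0.66 above miR3124_mimic (adjusted p = 0.0341), a call lost by DESeq2 (0.0991) and without any of the 4 libraries in turn (0.0834 to 0.177). It was 1.36 ± 0.44 below miR200b_mimic (adjusted p = 0.0112), a call lost without miR200b_mimic replicate 2 (0.144) or mixed replicate 1 or 2 (0.0675 and 0.0796), and one for which DESeq2 gave no adjusted p.

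The promoters of PTGS1, PTGES and PTGS2 are shown because the first pair rose and PTGS2 fell with miR3124_mimic. Each runs from 250 bases before to 50 after the start of the gene (RefSeq, GRCh38.p14), on the strand of the gene. Capitals mark matches on either strand to the TATA box (TATAAA), the GC box (GGGCGG), the CCAAT box (CCAAT), an E-box (CAGGTG) and the core of the cyclic AMP response element (TGACG).
PTGS1: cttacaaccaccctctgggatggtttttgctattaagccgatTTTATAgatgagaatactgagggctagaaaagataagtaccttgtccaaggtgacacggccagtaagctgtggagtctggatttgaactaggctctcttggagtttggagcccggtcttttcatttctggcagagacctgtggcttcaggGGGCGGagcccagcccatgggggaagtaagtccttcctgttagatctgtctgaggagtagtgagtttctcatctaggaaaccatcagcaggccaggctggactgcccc
PTGES: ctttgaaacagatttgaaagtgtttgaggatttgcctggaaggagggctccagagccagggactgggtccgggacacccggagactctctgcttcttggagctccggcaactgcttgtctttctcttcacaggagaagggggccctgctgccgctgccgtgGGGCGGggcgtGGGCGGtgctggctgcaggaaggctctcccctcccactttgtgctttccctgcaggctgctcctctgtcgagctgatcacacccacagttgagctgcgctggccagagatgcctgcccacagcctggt
PTGS2: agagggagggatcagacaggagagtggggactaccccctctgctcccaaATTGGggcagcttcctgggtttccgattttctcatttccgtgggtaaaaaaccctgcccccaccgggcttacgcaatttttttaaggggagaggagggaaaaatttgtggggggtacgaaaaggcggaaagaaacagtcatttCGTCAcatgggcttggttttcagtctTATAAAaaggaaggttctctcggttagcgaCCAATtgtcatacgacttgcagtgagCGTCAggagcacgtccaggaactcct
They lie at chr9:122370283-122370582 (plus strand), chr9:129752993-129753292 (minus strand) and chr1:186680374-186680673 (minus strand). PTGS2 held TATAAA 32 bases before the start, the CCAAT box at 2 places and the core of the cyclic AMP response element at 2 places. PTGS1 held TATAAA 208 bases before the start and 1 GC box, and PTGES held 2 GC boxes. The whole cyclic AMP response element (TGACGTCA), which contains the core, and the AP-1 site (TGANTCA) were in none of the 3. Of all 27305 promoters searched, 12.0% held the TATA box, 44.6% the GC box, 35.7% the CCAAT box, 25.0% the core and 1.98% the whole of the cyclic AMP response element, 7.76% the AP-1 site and 20.6% the E-box, which none of the 3 held. These are matches of letters and not sites shown to be in use.

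Among the prostaglandin E synthases, PTGES (chr9:129738331-129753047, minus strand), the inducible membrane enzyme, rose and PTGES2 fell with miR3124_mimic. PTGES was at 2.003 and 1.85 CPM in miRcontrol and 5.46 and 6.05 in miR3124_mimic. The mixed group had 2.21 and 1.13 CPM, miR200b_mimic 1.80 and 2.19, and miR92b_inhibitor 1.58 and 1.42. The miR3124_mimic libraries stood above the other 8, which overlapped. PTGES rose by 1.58 ± 0.25 on the log2 scale with miR3124_mimic (adjusted p = 5.76e-07). The mixed group, which also held that mimic, was 1.79 ± 0.25 below miR3124_mimic (adjusted p = 6.29e-08), and its difference from miRcontrol was -0.21 ± 0.30 (adjusted p = 0.617).

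PTGES2 (chr9:128120693-128128462, minus strand), a membrane-associated synthase, was at 49.3 and 49.0 CPM in miRcontrol, 32.8 and 35.9 in miR3124_mimic and 45.1 and 43.0 in the mixed group. It was at 52.9 and 57.1 CPM in miR200b_mimic and 45.8 and 48.5 in miR92b_inhibitor. The miR3124_mimic libraries were the lowest of the 10. PTGES2 fell by 0.51 ± 0.07 with miR3124_mimic (adjusted p = 1.27e-08), and the mixed group was 0.35 ± 0.07 above miR3124_mimic (adjusted p = 2.53e-05) and 0.33 ± 0.06 below miR200b_mimic (adjusted p = 5.3e-05). The smaller differences from miRcontrol, 0.17 ± 0.06 in miR200b_mimic (adjusted p = 0.0328) and -0.16 ± 0.06 in the mixed group (adjusted p = 0.0419), were lost by DESeq2 (adjusted p = 0.136 and 0.150), with no filter (0.0586 and 0.0835) and without either miRcontrol library. The second was also lost by TMM normalization (0.0619) and with library totals alone (0.0719). The first was lost as well without miR200b_mimic replicate 2 (0.338) and the second without either mixed library (0.0563 and 0.245). The antisense gene PTGES2-AS1 had 4 to 17 counts per library, and the counting is not stated to use strand.

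PTGES3 (chr12:56663341-56688408, minus strand), a cytosolic synthase also known as the HSP90 co-chaperone p23, was the most abundant of the 10. It was at 518 ± 3.58 CPM in miRcontrol, 472 ± 10.4 in miR3124_mimic, 490 ± 6.95 in the mixed group, 468 ± 12.3 in miR92b_inhibitor and 544 ± 22.2 in miR200b_mimic. It fell by 0.13 ± 0.04 with miR3124_mimic (adjusted p = 0.00197) and by 0.14 ± 0.04 with miR92b_inhibitor (adjusted p = 0.00128), and was 0.15 ± 0.04 lower in the mixed group than in miR200b_mimic (adjusted p = 0.000829). Its 5 processed copies, PTGES3P1 to PTGES3P5, had at most 3 counts each in any library.

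The exporter ABCC4 (chr13:95019829-95301475, minus strand) differed little between groups. It was at 97.3 and 94.9 CPM in miRcontrol, 86.6 and 85.5 in miR3124_mimic, 86.5 and 91.2 in the mixed group, 106 and 98.8 in miR92b_inhibitor and 90.2 and 86.1 in miR200b_mimic. ABCC4 fell by 0.16 ± 0.05 with miR3124_mimic (adjusted p = 0.00716), a call lost without miRcontrol replicate 1 (0.0643) or miR3124_mimic replicate 2 (0.0545). It fell by 0.13 ± 0.05 with miR200b_mimic (adjusted p = 0.0422), a call lost by DESeq2 (0.128), by TMM normalization (0.0566), with no filter (0.0896), without either miRcontrol library (0.214 and 0.0764) and without miR200b_mimic replicate 2 (0.309). The mixed group was 0.21 ± 0.05 below miR92b_inhibitor (adjusted p = 0.000646). HPGD (chr4:174490177-174523154, minus strand), the inactivating enzyme, had 0 counts in all 10 libraries, which allows a level of up to 0.0177 CPM over their 169482423 counts.

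Of the receptors, PTGER4 (chr5:40679498-40693735, plus strand) fell with miR3124_mimic, and PTGER2 passed no test with all 10 libraries. PTGER4 was at 10.0 and 9.85 CPM in miRcontrol, 6.83 and 6.62 in miR3124_mimic, 10.6 and 11.1 in the mixed group, 8.40 and 8.49 in miR92b_inhibitor and 10.7 and 10.5 in miR200b_mimic. The miR3124_mimic libraries were the lowest of the 10, followed by those of miR92b_inhibitor. PTGER4 fell by 0.56 ± 0.14 with miR3124_mimic (adjusted p = 0.000501), and the mixed group was 0.69 ± 0.13 above miR3124_mimic (adjusted p = 2.53e-05) and 0.36 ± 0.13 above miR92b_inhibitor (adjusted p = 0.0199). The last call was lost by DESeq2 (0.115) and without mixed replicate 2 (0.111) or miR92b_inhibitor replicate 1 or 2 (0.0786 and 0.0732). PTGER4 holds the word of miR-92b-3p, and with miR92b_inhibitor its difference from miRcontrol was -0.23 ± 0.13 (adjusted p = 0.160).

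PTGER2 (chr14:52314305-52328606, plus strand) was at 3.53 ± 0.267 CPM in miRcontrol, 4.23 ± 1.74 in miR3124_mimic, 3.38 ± 0.706 in the mixed group, 3.82 ± 1.03 in miR92b_inhibitor and 2.80 ± 0.265 in miR200b_mimic. The 2 miR3124_mimic libraries differed most, at 5.46 and 3.00 CPM. Without the second of them, PTGER2 was 0.63 above miRcontrol (adjusted p = 0.0489) and the mixed group was 0.69 below miR3124_mimic (adjusted p = 0.0298), and without the first the signs turned (-0.24 and 0.17). With miR200b_mimic, whose seed word PTGER2 holds, the difference was -0.32 ± 0.26 on the log2 scale (adjusted p = 0.343), and both libraries, at 2.62 and 2.99 CPM, were below the miRcontrol libraries at 3.72 and 3.34. Replicate 2 of miR3124_mimic (3.00 CPM), replicate 1 of miR92b_inhibitor (3.09) and replicate 1 of the mixed group (2.88) were also below both, and their partner libraries were above both.

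**Figure D2:**
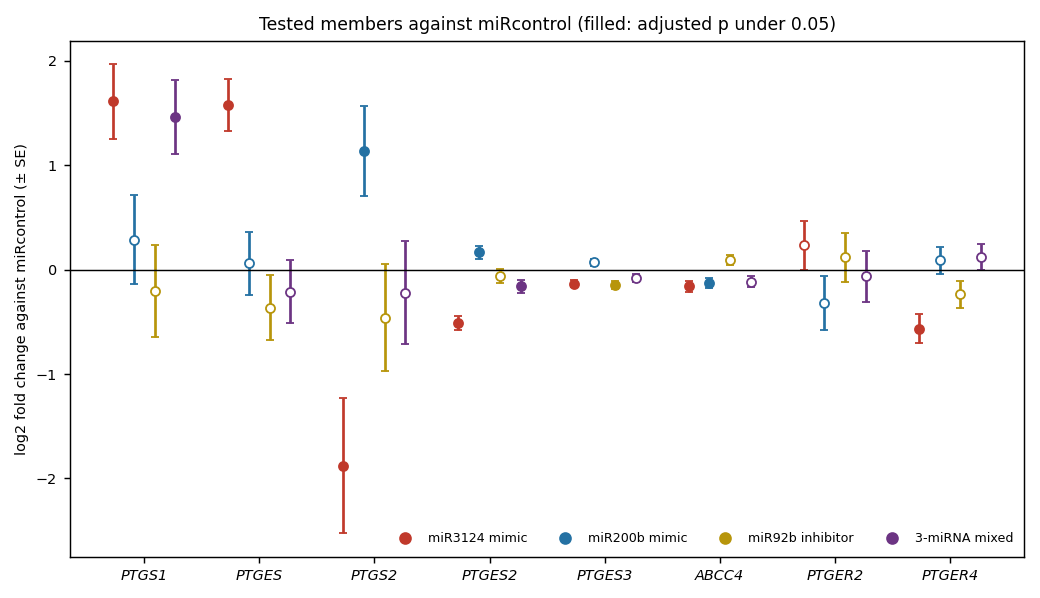
Log2 fold change against miRcontrol (points, with SE as whiskers) of the 8 tested genes other than SLCO2A1 in the 4 transfected groups. Filled points have an adjusted p under 0.05, and with miR3124_mimic PTGS1 and PTGES lie above 0 and PTGS2, PTGES2, PTGES3, ABCC4 and PTGER4 below it.

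Set against all genes, miR3124_mimic moved the largest number of the 8 tested genes. It raised 2 of 8 and lowered 5 of 8, where 25.7% of all tested genes were called higher and 25.3% lower. With miR200b_mimic 2 of 8 were called higher and 1 lower, against 21.4% and 19.1% of all genes. With miR92b_inhibitor none was called higher and 1 lower, against 17.5% and 18.2%. In the mixed group 1 was called higher and 1 lower, against 21.5% and 21.1%. With so many genes called, a share of 2 or 3 in 8 is near the background. The median log2 fold change of the 8 was -0.15 with miR3124_mimic, 0.080 with miR200b_mimic, -0.17 with miR92b_inhibitor and -0.096 in the mixed group, where the median of all tested genes lay between -0.0061 and 0.0039. The 4 comparisons share the miRcontrol libraries.

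At a fold change of 2 and a p of 0.05, the thresholds of the study, applied here to the unadjusted p since the study does not say whether its p was adjusted, 3 of the 8 passed with miR3124_mimic (PTGS1, PTGES and PTGS2), where 8.81% of all tested genes did. With miR200b_mimic 1 passed (PTGS2), against 5.7%, with miR92b_inhibitor none, against 2.63%, and in the mixed group 1 (PTGS1), against 5.42%. PTGES3, called lower with miR92b_inhibitor, was at 0.905 times the miRcontrol level.

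The mixed group was also compared with each single transfection. Against miR3124_mimic, 3 of the 8 genes were higher (PTGS2, PTGES2 and PTGER4) and PTGES was lower, with 25.3% and 23.8% of all tested genes called higher and lower. Against miR200b_mimic, PTGS1 was higher and PTGS2, PTGES2 and PTGES3 were lower, with 18.2% and 20.4% of all genes. Against miR92b_inhibitor, PTGS1 and PTGER4 were higher and ABCC4 was lower, with 19.7% and 19.9%. PTGS1 was thus called different between the mixed group and the single transfections other than miR3124_mimic. Its difference from miR200b_mimic depended in part on single libraries, as given above. From miR3124_mimic the mixed group differed in PTGS1 by -0.15 ± 0.30 (edgeR, adjusted p = 0.706).

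Per kilobase of exon (GENCODE v29), the mean level over the 10 libraries ran from PTGES3 at 147 CPM per kb through PTGES2 at 15.1, ABCC4 at 10.7, PTGER4 at 2.35, PTGER2 at 1.44, PTGES at 1.36, PTGS1 at 0.260, SLCO2A1 at 0.140 and PTGS2 at 0.134 to HPGD at 0. By group means PTGES3, PTGES2 and ABCC4 led in this order in all 5 groups, and the order below them varied: PTGES, at 3.04 CPM per kb, was above PTGER4, at 1.70, in miR3124_mimic, and PTGS2, at 0.292, was above PTGS1, at 0.175, in miR200b_mimic. The last neighbours with counts, SLCO2A1 and PTGS2, lie closer together than the spread of either gene between groups, as do PTGER2 and PTGES.

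Among the genes whose log2(CPM + 1) followed that of SLCO2A1 most closely over the 10 libraries were BLMH (Pearson r = 0.989), PHF10 (0.978), IL31RA (0.978) and PLAU (0.977), out of 12899 candidates with a mean of at least 1 CPM. The points come from 5 groups of 2 libraries and are not independent. PLAU, the urokinase plasminogen activator, was at 169 and 175 CPM in miRcontrol, 453 and 454 in miR3124_mimic, 427 and 421 in the mixed group, 215 and 218 in miR92b_inhibitor and 240 and 242 in miR200b_mimic. IL31RA, a cytokine receptor chain, went from 27.4 and 28.4 CPM in miRcontrol to 52.0 and 49.1 in miR3124_mimic. Of the other prostaglandin genes, PTGS1 had an r of 0.913 with SLCO2A1, PTGES 0.602, PTGER2 0.105, PTGER4 -0.295, PTGES3 -0.341, PTGS2 -0.405, PTGES2 -0.687 and ABCC4 -0.783.

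**Figure D3:**
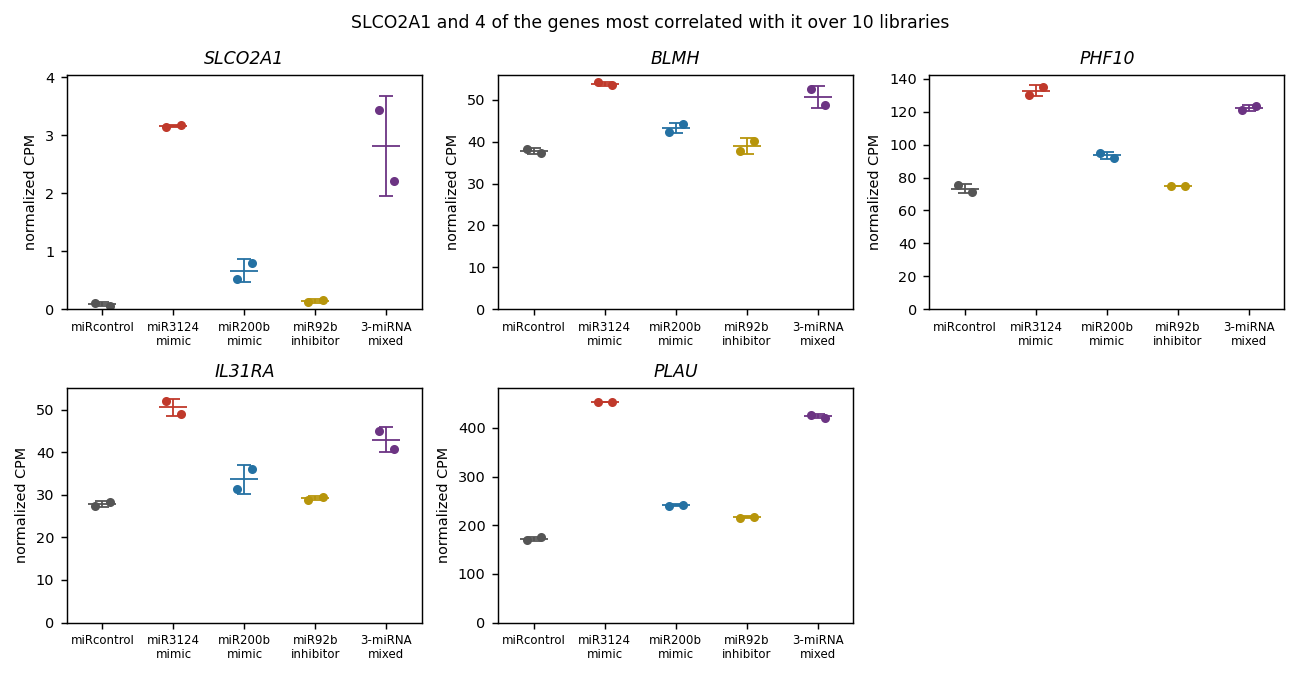
Normalized CPM (linear axis from 0) of SLCO2A1 and 4 of the genes most correlated with it, in the 2 libraries (points) of each group, with the mean (bar) and SD (whiskers). In all 5 panels the miR3124_mimic and 3-miRNA mixed libraries are the highest, and miR200b_mimic lies between them and miRcontrol.

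Genes upstream and beside the pathway were read from lists of related genes. The counts below are to be read against the shares of all tested genes called higher and lower, which were 25.7% and 25.3% with miR3124_mimic, 21.4% and 19.1% with miR200b_mimic, 17.5% and 18.2% with miR92b_inhibitor and 21.5% and 21.1% in the mixed group. ALOX5AP, CELF2, PTGDR2, CDH1 and EPCAM enter these counts although they passed the filter through transfected groups in which they were above miRcontrol, so their calls are no independent result. Of 22 genes that release or handle arachidonic acid, 17 were tested. With miR3124_mimic 4 were higher and 5 lower, with miR200b_mimic 5 and 2, with miR92b_inhibitor 2 and 7, and in the mixed group 3 and 7. The shares with miR3124_mimic were near those of all genes. The list's median log2 fold change was -0.26 with miR92b_inhibitor and -0.12 in the mixed group. FADS2, a desaturase on the route to arachidonic acid, was at 181 ± 11.1 CPM in miRcontrol and 72.2 ± 4.98 in miR92b_inhibitor, where it fell by 1.32 ± 0.05 (adjusted p = 2.53e-24). PLA2G4C, a cytosolic phospholipase, rose there by 1.08 ± 0.26 (adjusted p = 0.00095), from 1.78 ± 0.237 to 3.76 ± 0.949 CPM.

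Of 13 other prostanoid synthases and reductases 6 were tested, with 1 higher and 1 lower in miR3124_mimic and in the mixed group, none and 1 in miR200b_mimic, and none in miR92b_inhibitor. The median of this list lay between -0.054 and 0.051 in the 4 comparisons. CBR3, a carbonyl reductase, fell by 1.01 ± 0.11 with miR200b_mimic (adjusted p = 3.12e-10), from 21.3 ± 0.880 to 10.8 ± 2.03 CPM. Of 9 other prostanoid receptors and related genes 7 were tested, with 2 higher and 1 lower in miR3124_mimic, 1 and 3 in the mixed group, 1 and 2 in miR92b_inhibitor and 2 and 2 in miR200b_mimic, with medians of 0.23, 0.28, 0.067 and -0.013. PTGFR, the receptor of prostaglandin F, fell by 1.60 ± 0.42 with miR200b_mimic (adjusted p = 0.00154), from 1.70 ± 0.0502 to 0.549 ± 0.0367 CPM.

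The relatives of both transporters were read as well. Of 10 other SLCO carriers only 3 were tested, and of these none was called with miR3124_mimic or miR92b_inhibitor, 1 was lower with miR200b_mimic (SLCO3A1) and 1 was higher in the mixed group (SLCO4A1), with medians between -0.22 and 0.16. Of 10 other ABCC transporters 6 were tested, and 4 were higher and none lower both in miR3124_mimic and in the mixed group, with medians of 0.75 and 0.35. With miR200b_mimic 2 were higher and 1 lower, and with miR92b_inhibitor 1 and 1. ABCC3, an organic anion exporter, was at 9.11 ± 1.30 CPM in miRcontrol, and rose by 1.46 ± 0.11 with miR3124_mimic (adjusted p = 8.61e-16), to 25.0 ± 0.531 CPM, and by 1.07 ± 0.12 with miR200b_mimic (adjusted p = 1.13e-10). ABCC2 rose by 1.23 ± 0.30 in the mixed group (adjusted p = 0.000756).

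The lipoxygenase and leukotriene branch, the other main fate of arachidonic acid, had 8 of 17 genes tested. With miR3124_mimic 4 were higher and 1 lower, with miR200b_mimic 2 and none, with miR92b_inhibitor 1 and 1, and in the mixed group 2 and 1, with medians of 0.23, 0.14, -0.030 and 0.18. ALOXE3, an epidermal lipoxygenase, was at 4.09 ± 0.127 CPM in miRcontrol, 16.1 ± 2.04 in miR200b_mimic and 19.1 ± 0.368 in the mixed group, a rise of 1.96 ± 0.14 (adjusted p = 6.21e-16) and of 2.22 ± 0.14 (adjusted p = 1.37e-18). ALOX5AP, which presents arachidonic acid to ALOX5 and was chosen after its values were seen, had 0 and 1 counts in miRcontrol and 13 and 14 with miR3124_mimic, then 13 and 18 in the mixed group, 7 and 7 in miR92b_inhibitor and 2 and 4 in miR200b_mimic.

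A list of 10 RNA-binding proteins known to act on PTGS2 mRNA was read, and all 10 were tested. With miR3124_mimic none was higher and 6 were lower (ELAVL1, HNRNPD, KHSRP, ZFP36, ZFP36L1 and ZFP36L2), with a median of -0.16. With miR200b_mimic 3 were higher and 5 lower, with miR92b_inhibitor 2 and 2, and in the mixed group 1 and 6. This list holds stabilizers of the mRNA, such as ELAVL1, as well as proteins that speed its decay, such as ZFP36.

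Of 14 NF-kB and cytokine genes, many of them induced together with PTGS2 in inflammation, 5 were higher and 4 lower with miR3124_mimic, 7 and 3 with miR200b_mimic, 11 and none with miR92b_inhibitor, and 9 and none in the mixed group. The list's median was 1.003 with miR92b_inhibitor and 0.63 in the mixed group, groups in which PTGS2 itself was at 0.505 ± 0.137 and 0.600 ± 0.0116 CPM against 0.699 ± 0.145 in miRcontrol. CXCL8, a neutrophil attractant, was at 23.1 ± 1.96 CPM in miRcontrol and rose by 2.14 ± 0.08 with miR92b_inhibitor (adjusted p = 2.26e-26) and fell by 1.35 ± 0.12 with miR200b_mimic (adjusted p = 3.17e-13). IL1A was at 9.11 ± 1.22 CPM in miRcontrol and rose by 1.45 ± 0.11 with miR200b_mimic, 1.32 ± 0.11 with miR92b_inhibitor and 2.44 ± 0.09 in the mixed group, with edgeR adjusted p-values of 7.07e-16, 4.56e-14 and 3.77e-26. BIRC3 and CXCL2 rose by 1.72 ± 0.07 and 1.39 ± 0.30 with miR92b_inhibitor. In the mixed group BIRC3 rose by 2.09 ± 0.07, TNFAIP3 by 1.45 ± 0.07 and IL6 by 1.25 ± 0.26. IL6 also rose with miR200b_mimic, by 1.37 ± 0.27, and CCL2 fell there by 1.16 ± 0.22 and rose with miR3124_mimic by 1.72 ± 0.15 (adjusted p = 1.33e-13).

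Downstream of the receptors, 11 of 12 targets of cyclic AMP and CREB were tested. With miR3124_mimic 6 were higher and 1 lower, with miR200b_mimic 4 and 1, with miR92b_inhibitor 4 and 1, and in the mixed group 5 and none, with medians of 0.46, 0.37, 0.32 and 0.39. FOS was at 0.702 ± 0.0208 CPM in miRcontrol and 4.42 ± 0.00794 in the mixed group, and rose in all 4 groups, by 1.67 ± 0.36, 1.34 ± 0.38, 1.83 ± 0.34 and 2.64 ± 0.31. PDE4D, which breaks down cyclic AMP, rose by 1.38 ± 0.08 with miR3124_mimic (adjusted p = 1.16e-19), from 19.8 ± 2.47 to 51.7 ± 2.81 CPM. PDE4B rose by 1.33 ± 0.21 and NR4A1 fell by 1.08 ± 0.19 with miR3124_mimic. Many of these genes also answer to other signals.

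A list of 11 chaperone genes held HSP90, the partner of PTGES3, its co-chaperones, and HSPA8 and DNAJB1 of other chaperone families. Of these 11, 1 was higher and 8 lower with miR3124_mimic, and 7 and 3 with miR200b_mimic. With miR92b_inhibitor 1 was higher and 2 lower, and in the mixed group 2 and 4. The medians were -0.15, 0.25, 0.0092 and 0.022. No gene of this list reached a fold change of 2.

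**Figure D4:**
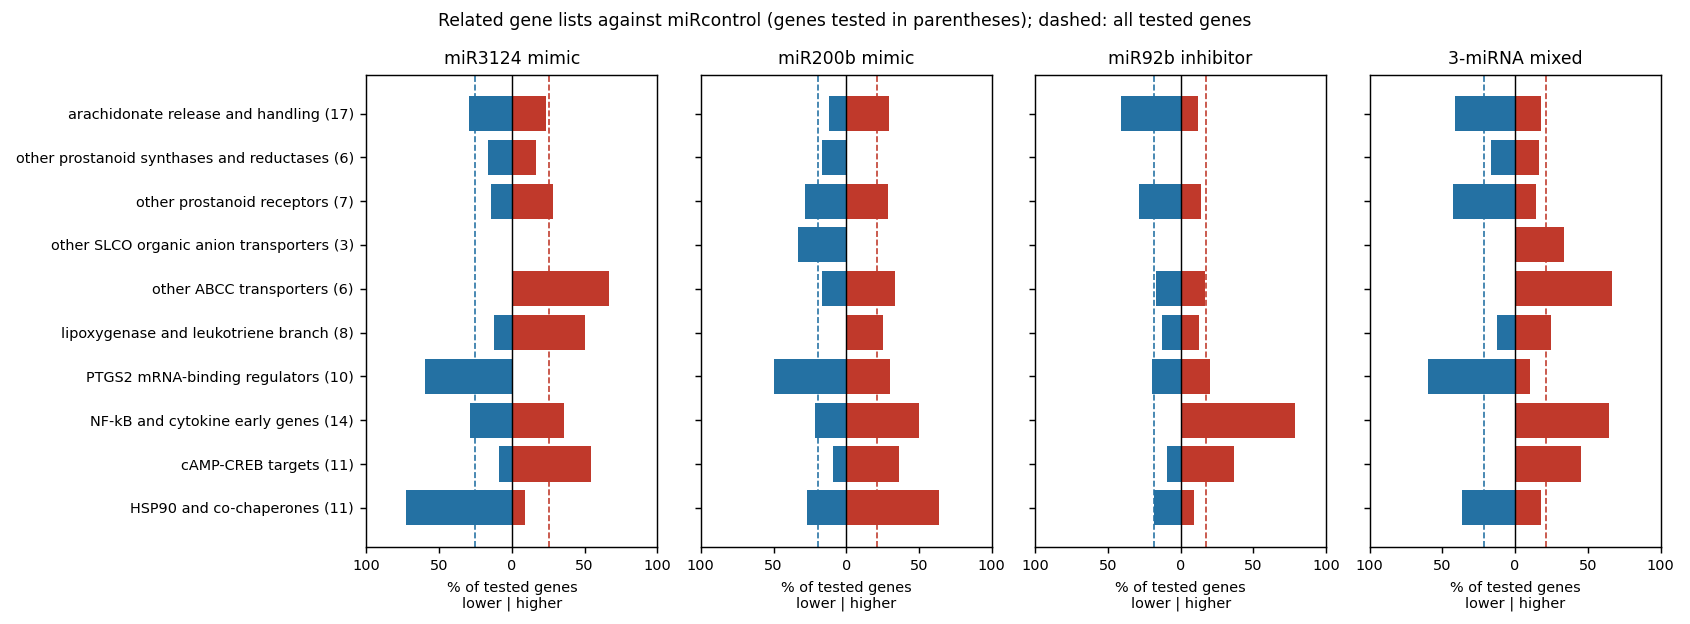
Share (%) of the tested genes of each related list called higher (red, to the right) or lower (blue, to the left) against miRcontrol, with the number of genes tested in parentheses and the share of all tested genes as dashed lines. The lists are small, and the cell type markers are not drawn. The widest bars of those drawn are 11 of 14 NF-kB and cytokine genes higher with miR92b_inhibitor and 8 of 11 HSP90 and other chaperone genes lower with miR3124_mimic.

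Cell type markers were read to check the label of the cells. Of 10 epithelial markers 6 were tested, and KRT8 was the most abundant over all libraries (KRT7 stood above it in miR200b_mimic and the mixed group). KRT14, TP63 and KRT5, which mark basal airway cells, had at most 1, 2 and 9 counts in any library. CDH1 had 3 and 2 counts in miRcontrol, 146 and 157 in miR200b_mimic and 46 and 36 in the mixed group. The 10 summed to 2268 and 2220 CPM in miRcontrol, 2774 and 2781 with miR3124_mimic, 4188 and 4271 with miR200b_mimic, 2188 and 2098 with miR92b_inhibitor, and 4109 and 4082 in the mixed group. Of the 6 tested, 2 were higher and 1 lower with miR3124_mimic, 6 and none with miR200b_mimic, none and 2 with miR92b_inhibitor, and 5 and 1 in the mixed group. KRT19 fell by 3.40 ± 0.24 with miR3124_mimic and by 1.65 ± 0.18 in the mixed group, and KRT18 rose by 1.06 ± 0.03 with miR200b_mimic and by 1.001 ± 0.03 in the mixed group. EPCAM was at 0.289 ± 0.239 CPM in miRcontrol, 10.2 ± 0.125 in miR200b_mimic and 5.48 ± 0.298 in the mixed group. SCGB1A1 and MUC5AC, which mark differentiated airway cells, were at 0 in every library. Of the 6 genes in their list only AGER was tested, and it was called lower with miR92b_inhibitor. That call rests on 17 and 12 counts in miRcontrol against 3 and 5 in miR92b_inhibitor. AGER passed the filter through groups other than miR92b_inhibitor.

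Of 9 mesenchymal markers 5 were tested, with VIM the most abundant over all libraries and DCN at 0. In miR3124_mimic FN1, at a mean of 3383 CPM, stood above VIM. With miR3124_mimic 2 were higher and 1 lower, with miR200b_mimic 1 and 4, with miR92b_inhibitor 1 and 3, and in the mixed group 2 and 3. The 9 summed to 7355 and 7333 CPM in miRcontrol, 4561 and 4436 with miR3124_mimic, 4676 and 4620 with miR200b_mimic, 6986 and 6839 with miR92b_inhibitor, and 4982 and 5001 in the mixed group. VIM fell by 2.23 ± 0.03 with miR3124_mimic, from 3800 ± 132 to 813 ± 20.1 CPM (adjusted p = 2.77e-42), and PDGFRB rose there by 1.95 ± 0.11. With miR200b_mimic COL1A1 rose by 1.62 ± 0.10, and PDGFRB and FN1 fell by 1.33 ± 0.18 and 1.21 ± 0.04. Of 6 immune markers, CD14 and CD68 were tested. CD14 was higher with miR3124_mimic (by 3.49 ± 0.23) and in the mixed group and lower with miR200b_mimic (by 1.38 ± 0.45), and CD68 was lower with miR200b_mimic and in the mixed group and higher with miR92b_inhibitor. The control cells thus carried keratins and vimentin together with near-absent CDH1, and their part in the results for the prostaglandin genes was not tested.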

How the data were processed

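Poly(A) mRNA of transfected BEAS2B cells was sequenced from directional libraries, 2 for each of 5 groups. Reads were checked and trimmed by the authors (FastQC, FASTX_Trimmer, BBMap) and mapped with TopHat to GRCh38, per the labels and the methods. The counting tool and annotation were not given in the sources used here. The deposited values are raw counts per gene symbol, without normalization. Each table held 58173 rows, and the 5771 rows that repeat a symbol were summed by symbol, none of them one of the 10 prostaglandin genes. Totals were 13587666 to 18503890 counts per library.

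The edgeR 4.0.16 quasi-likelihood test (R 4.3.3, limma 3.58.1) was run with filterByExpr, which kept 14884 genes, RLE normalization and all 10 libraries in 1 fit without covariates, with Benjamini-Hochberg adjustment over all tested genes. The common dispersion was 0.000751. In each group the libraries differed by more than counting error, with a chi-square per degree of freedom of 1.75 to 2.63. In counts simulated for each of the 7 comparisons, 177 to 190 of 200 changed genes were recovered and 2 to 11 unchanged genes were called. There all genes shared 1 fixed dispersion, only these 200 genes changed, and each by a fold change of at least 2. The simulation checks that the code runs as intended. It gives no rate of recovery or error for the smaller changes and the many called genes of these data. A level of 0 was bounded by 3 counts, which covers counting error only.

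The prostaglandin genes, the 15 related lists and the rules were chosen with earlier results of these data known. From each related list, at most 4 genes per comparison with miRcontrol were named, those with the largest fold change among genes with an adjusted p under 0.05, a fold change of at least 2, a mean of at least 1 CPM and no overlap between groups, and the 5 genes most correlated with SLCO2A1 were named, of which 1 is not reported here. Alternatives were TMM or library totals, the DESeq2 1.42.0 Wald test, only the 2 groups compared, a replicate block, no filter, at least 10 counts in every library, and leave-one-out fits.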

Additional observations from a re-analysis of the deposited data

How the results depend on the processing

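Of 866 values recomputed under the alternatives, 779 were counted as unchanged, 43 lost their call, 5 gained one, 19 moved and 20 changed sign. For log2 fold changes of the tested genes, unchanged means the same direction and side of the threshold. For SLCO2A1 it means the same direction and a shift smaller than the SE. A number of called genes was counted as unchanged when it stayed near the main number, so single calls could still be lost. These numbers also include fits without a library of a group outside the comparison. None of the 24 called log2 fold changes changed sign in 259 alternatives, and 13 of them never lost the call. All sign changes came from leaving out 1 library, and the cause was not tested. The number of genes called with miR200b_mimic was 3, and it was 0 by DESeq2, 1 with no filter and 0 to 3 without 1 library. In the mixed group it was 2, and it was 1 by TMM, by library totals, by DESeq2 and with no filter, 3 with only the 2 groups compared, and 1 to 3 without 1 library. Against miR200b_mimic the mixed group had 4 calls, and 2 to 4 without 1 library, the lowest without mixed replicate 2. The 1 gene past a fold change of 2 with miR200b_mimic became 0 by DESeq2 and with at least 10 counts in every library, and 0 to 1 without 1 library. Without 1 library, the difference from miRcontrol ranged from -0.24 to 0.63 for PTGER2 with miR3124_mimic, from -0.0395 to 0.65 for PTGS1 and -0.10 to 0.18 for PTGES with miR200b_mimic, from -0.49 to 0.16 for PTGS1 and -0.19 to 0.36 for PTGER2 with miR92b_inhibitor, and from -0.41 to 0.0074 for PTGS2, -0.77 to 0.20 for PTGES and -0.30 to 0.13 for PTGER2 in the mixed group. The difference of the mixed group from miR3124_mimic ranged from -0.51 to 0.12 for SLCO2A1, -0.55 to 0.16 for PTGS1 and -0.69 to 0.17 for PTGER2. From miR200b_mimic it ranged from -0.83 to 0.13 for PTGES, -0.0285 to 0.051 for ABCC4 and -0.0046 to 0.0687 for PTGER4. From miR92b_inhibitor it ranged from -0.0054 to 0.55 for PTGS2, -0.40 to 0.56 for PTGES and -0.43 to 0.13 for PTGER2. Replicate numbers do not pair these libraries, since same-numbered libraries deviated with correlations of -0.041 to 0.0426 over 12900 genes, and with the replicate block 7 genes were called with miR3124_mimic, 3 with miR200b_mimic, 1 with miR92b_inhibitor and 2 in the mixed group, the same numbers as without it. Depth limits HPGD, which could only be bounded, and SLCO2A1 and PTGS2, whose lowest libraries held 1 and 2 counts.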
